A study of Rattus norvegicus with 12 samples.

Results

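A small set of genes carried N6-methyladenosine (m6A) peaks at many separate places on the genome, and the regions in those genes are described here. The peaks of the 6 immunoprecipitation (IP) lists were merged into regions wherever they overlapped by at least 1 bp, and each region took the gene name given in the lists. Members were chosen by the presence of peaks in the lists: a gene entered if it held 8 or more regions that each had a peak in at least 2 lists. This gave 2228 regions in 223 genes, called host genes below, out of 23048 regions in 9938 genes that had a peak in at least 2 lists. Before that filter there were 29269 merged regions from 113141 peaks. The host genes thus made up 2.24% of genes and held 9.67% of regions. The cut fell in a continuous range, with 76 genes at 8 regions just inside it and 139 genes at 7 regions just outside it.

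m6A is a methyl mark that a complex of writer proteins places on adenosines of nascent RNA, that eraser enzymes can remove and that reader proteins bind. It is known to concentrate in long internal exons and around the stop codon of messenger RNAs, and it influences splicing, translation and RNA decay. In MeRIP-seq, RNA fragments are pulled down with an antibody against the mark, and a peak is a stretch where the pulled-down (IP) library has more reads than a background.

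Rat esophageal tissue was studied in 12 libraries, 3 per group. Rats of the BE group had an esophagoduodenostomy, surgery that connects the esophagus with the duodenum to model Barrett's esophagus, and gave 3 IP and 3 input libraries. The NC group had no treatment and likewise gave 3 IP and 3 input libraries. The labels give neither strain nor age. They do not say whether samples of a group are different animals, so the p-values rest on sample spread that could be technical only.

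Total counts of the input libraries ran from 15543460 to 17471748 in BE and from 11213531 to 16863737 in NC. The lists held 19329 to 20531 peaks in BE and 16644 to 18864 peaks in NC. Input levels below are in CPM, the counts divided by library size with TMM scaling. The summed level of 6 striated muscle markers was 799 to 1111 CPM in BE and 19047 to 21157 CPM in NC. That of 5 squamous epithelium markers was 51852 to 55492 CPM in BE and 30927 to 41868 CPM in NC. That of 4 columnar epithelium markers was 130 to 196 CPM in BE, highest in replicate 1, and 72.8 to 77.9 CPM in NC. Smooth muscle markers (3) summed to 159 to 230 CPM in BE and 1370 to 2045 CPM in NC. For 4 nerve and glia markers the sums were 3.16 to 8.95 CPM in BE and 39.9 to 137 CPM in NC. Leukocyte markers (3) overlapped, at 114 to 163 CPM in BE and 64.1 to 204 CPM in NC. BE input replicate 1 stood apart, with 5633 CPM of 5 hepatocyte markers, against 6.19 and 7.93 CPM in the other two BE inputs and 8.12 to 13.98 CPM in NC. In bulk tissue, fewer cells of a type and less RNA per cell cannot be told apart, and the part that tissue composition has in the region differences below was not tested.

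The host genes with most regions encoded large scaffold, muscle and chromatin proteins. *Trdn* (triadin, an anchor of the calcium release complex of muscle) had 29 regions, *Akap9* (a scaffold of the centrosome and Golgi) had 23, *Dst* (dystonin, a cytolinker that also anchors keratin filaments in basal epithelial cells) had 21 and *Neb* (nebulin, a ruler of the sarcomeric thin filament) had 20. In all, 5 genes had 20 or more. *Tnrc18* had 19 regions, *Eif4g3* (a translation initiation scaffold) 18, and *Myh9l1* and *Nol8* 16 each, the regions of the last pair including repeated copies described at the end. Most host genes were far from these numbers: 164 had 8 to 10 regions, the median was 9, and 22 had 14 or more.

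Regions in host genes were narrower than the other regions and lay closer together. Their median width was 167 bp (quartiles 114 and 312 bp, range 16 to 5319 bp), against 280 bp (quartiles 142 and 779 bp) for the other regions. Regions of at least 1 kb made up 7.23% of those in host genes and 19.0% of the others, and regions under 100 bp made up 18.4% and 11.9%. Neighbouring regions of a host gene lay a median of 3047 bp apart (quartiles 1511 and 7477 bp, 1992 gaps of up to 500 kb), and those of other genes 4201 bp apart (quartiles 1900 and 12679 bp, 11005 gaps). From first to last region, host genes at a single locus spanned a median of 61.8 kb of genome. *Eif3a*, the largest subunit of initiation factor eIF3, was shortest with 10 regions in 13.2 kb, and *Ank3* (ankyrin-G) longest with 8 regions in 523 kb. The regions covered a median of 5.21% of that span, from 0.475% to 26.8%. Number and width of regions come from the same merge as the rule, so these are descriptions.

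**Figure D1:**
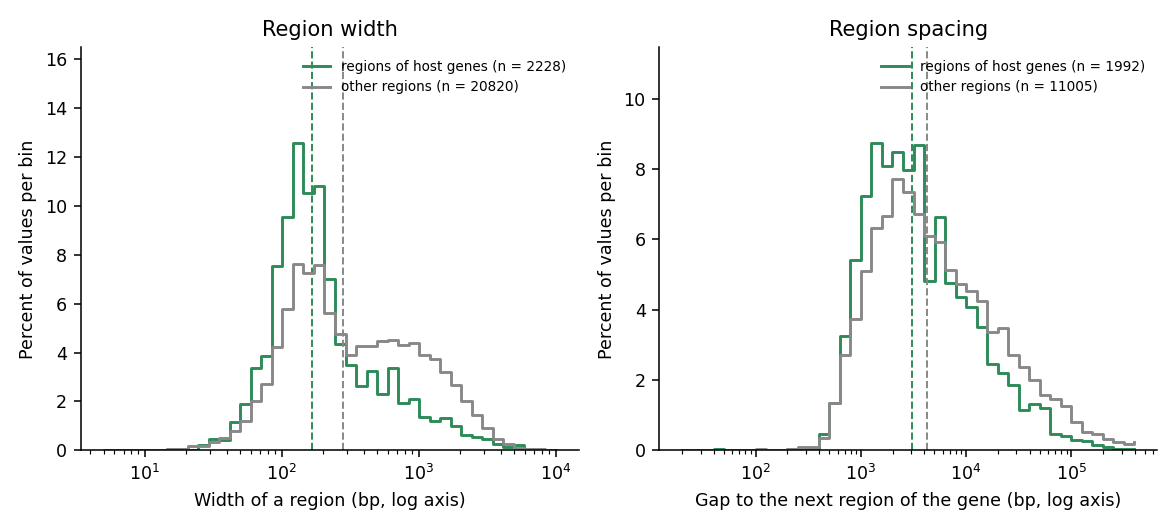
Width of a region (left, bp) and gap to the next region of the same gene (right, bp), both on log axes, as the percent of values per bin for regions of host genes and for other regions; dashed lines are medians. Widths have medians of 167 bp in host genes and 280 bp elsewhere, and the shoulder of regions near 1 kb is smaller in host genes.

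Single peaks in host-gene regions were narrow in every list too. The median width of peaks in host-gene regions was 171, 174.5 and 172 bp in the BE lists and 183, 179 and 185 bp in the NC lists. The median of all other peaks in the same lists was 274, 307 and 281 bp in BE and 397, 314 and 383 bp in NC. Peaks of host-gene regions were thus narrower in 6 of 6 lists, with a mean difference of -149 bp. Between groups, the median width in host-gene regions differed by -9.83 bp (BE minus NC), and the lists did not overlap. Over the regions with a peak in all 6 lists this difference was 0 bp. Peak widths come from the coordinates that the rule merged, and the lists have most peak ends in common, so no test is given.

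Peak ends recurred exactly. Of the peaks in host-gene regions, 96.5% had a start and an end identical to those of a peak in another list, against 86.9% of peaks in other regions. Of the 1114 host-gene regions with a peak in all 6 lists, 1042 (93.5%) had the same start and the same end in all of them. A width here is therefore nearly fixed per region, and lists differed in which regions they held rather than in how wide a region was. Where the regions lie relative to exons was not analysed here.

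Within a host gene the widths were uneven. The widest region held a median of 35.3% of the gene's summed region width. *Macf1* (a cytolinker between actin and microtubules) had the widest region, at 5319 bp, followed by *Dst* at 5238 bp. In *Dst*, *Macf1*, *Fat1* and *Fat2* (giant protocadherins) and *Mki67* (Ki-67, which coats mitotic chromosomes), 1 region exceeded 4 kb while the gene's median region was 200, 225, 426.5, 450 and 338 bp wide. *Trdn* was the opposite, with a median width of 45 bp, no region above 254 bp and a median gap of 4624 bp.

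Many regions were shared by all lists: 1114 of 2228 (50%) had a peak in all 6, against 48.2% of the other regions. Sharing followed width. With regions divided by width into 4 classes of near-equal size, 78.0% of the widest class (313 to 5319 bp) were in all 6 lists, against 45.9%, 39.8% and 36.6% of the next narrower classes down to the narrowest (16 to 114 bp). The widest region of each gene (239 with ties) was in all 6 lists in 78.2% of cases and the rest in 46.6%. Regions at the ends of the row, first or last in a gene, were in all 6 lists in 58.1% of cases and inner ones in 49.2%; their median widths were 306 and 155 bp. Presence chose the members, so no test is given.

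In *Trdn*, 19 regions were in all 6 lists, in *Akap9* 16 and in *Dst* 13, the 3 highest numbers. *Nudt9* (an ADP-ribose hydrolase) and *Sgms1* (sphingomyelin synthase 1) were the only host genes in which every region, 8 in each, had a peak in all 6 lists. Input RNA of *Nudt9* was higher in BE (84.8 ± 5.998 CPM in BE and 33.0 ± 1.20 CPM in NC, SD, n = 3 each; log2 fold change 1.36, edgeR adjusted p = 1.6e-05) and that of *Sgms1* lower (29.6 ± 4.48 CPM in BE and 58.1 ± 1.59 CPM in NC; log2 fold change -0.97, edgeR adjusted p = 0.000482). These 2 genes were named after their values were seen. *Dcp2*, *Myh10*, *Col6a5* and *LOC100909795* had no region in all 6 lists.

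Host-gene regions were held more often by BE than by NC lists. A peak was present in 1918, 1894 and 1960 of the 2228 regions in the BE lists (86.1%, 85.0% and 88.0%) and in 1558, 1639 and 1558 in the NC lists (69.9%, 73.6% and 69.9%). In the other regions the shares were 79.5%, 79.6% and 82.3% in BE and 70.4%, 76.6% and 73.4% in NC. The NC lists were also shorter as a whole, as given above, and presence in the lists chose the members.

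A region was called BE-only where all 3 BE lists and no NC list had a peak, and NC-only in the reverse case. In host genes 178 regions (7.99%) were BE-only, where the background over all regions in at least 2 lists was 5.48%. NC-only regions numbered 46 (2.06%), with a background of 3.28%. Of the host genes, 103 had a BE-only region, 25 an NC-only region, 10 had both and 105 had neither. A gene with 8 or more regions has more chances to hold such a region, and the share over all genes was not computed. BE-only regions made up 1.99% of the widest class and 9.60% to 10.7% of the other width classes. NC-only regions made up 1.81% to 2.37% of every width class.

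**Figure D2:**
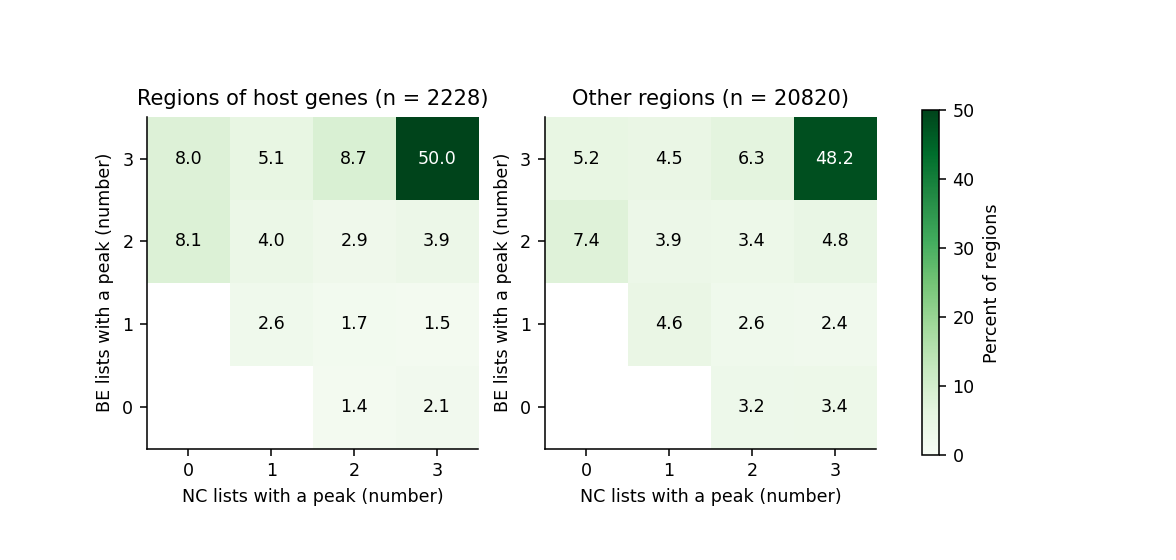
Percent of regions by the number of BE lists (vertical) and NC lists (horizontal) that hold a peak, for the 2228 regions of host genes and the 20820 other regions; blank cells are excluded by the rule of at least 2 lists. The cell of all 3 BE and no NC list holds 8.0% of host-gene regions and 5.2% of others, and the cell of all 3 NC and no BE list 2.1% and 3.4%.

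BE-only regions had lower enrichment than shared ones, by the authors' fold enrichment. Within host genes the median fold enrichment of BE-only peaks was 6.32, 5.14 and 5.05 in the BE lists, where peaks of the regions in all 6 lists had medians of 13.5, 13.99 and 12.9. NC-only peaks had medians of 11.4, 7.61 and 8.20 in the NC lists, beside 15.2, 11.45 and 13.5 for the regions in all 6 lists. When only peaks with a fold enrichment of at least 5 were kept, 134 genes passed the rule with 1295 regions, of which 61 were BE-only and 35 NC-only. When only peaks with a score of at least 100 were kept instead, 116 regions were BE-only and 17 NC-only. No background was computed under either filter. Peaks with a fold enrichment under 5 made up 15.4%, 16.4% and 19.8% of host-gene peaks in the BE lists. In the NC lists they made up 4.36%, 21.8% and 8.47%, so the lists differed in how many weak peaks they held.

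Counted per gene, every BE list held more regions than any NC list in 92 host genes (41.3%). The background was 9.36% of all genes with a region, most of which have fewer than 4 regions, and 18.4% of genes with 4 to 7 regions. The reverse held in 12 host genes (5.38%), with a background of 5.15% of all genes and 4.63% of genes with 4 to 7 regions. Regions held by lists of 1 group only also counted toward the rule that chose host genes. Of the host-gene regions, 359 had a peak in 2 or 3 BE lists and no NC list, and 77 the reverse. Neither background matched host genes in region number or selection. These shares therefore cannot show whether host genes separate more often than other genes. With the fold enrichment minimum of 5, 26 of 134 host genes had more regions in every BE list and 6 in every NC list. No background was computed with this minimum. Without the BE IP list of replicate 1, whose input held the hepatocyte markers, 76 and 13 genes separated, with 192 BE-only and 53 NC-only regions. These calls then rest on the remaining lists only and are looser, so the numbers are not the same measure as with all lists.

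**Figure D3:**
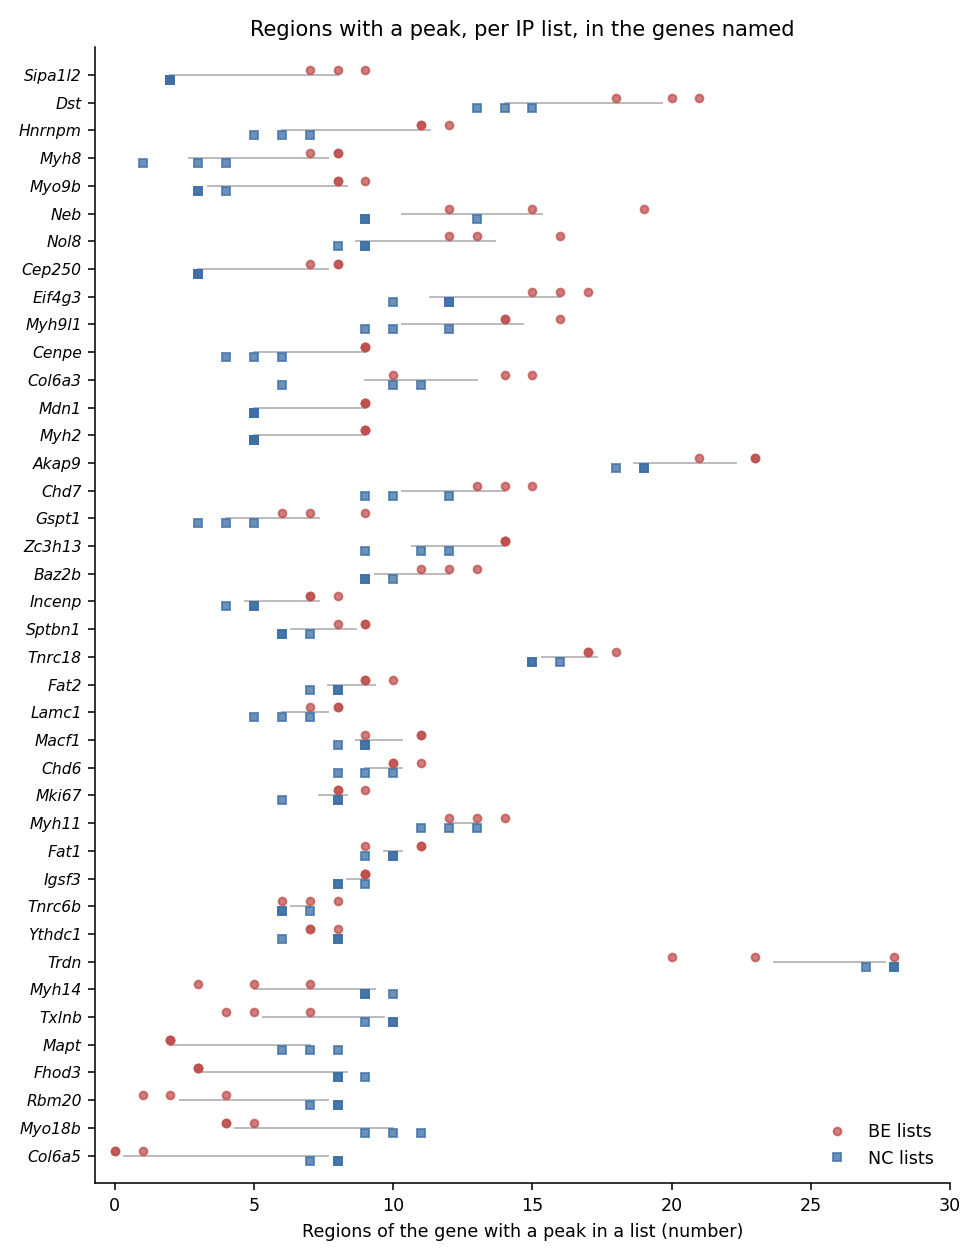
Number of regions with a peak in each IP list for the genes named, with BE lists (circles) above NC lists (squares) and a line between the group means; genes are ordered by the difference of means, and darker marks are lists with equal numbers. *Sipa1l2* and *Dst* stand at the top with more regions in BE, and *Myo18b* and *Col6a5* end it with more in NC.

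Most BE-only regions per gene were found in *Hnrnpm* and *Myo9b*, with 5 each. *Hnrnpm*, a splicing regulator that binds pre-mRNA, had a peak in 11, 12 and 11 of its 12 regions in the BE lists and in 6, 5 and 7 in the NC lists. Its regions lay on chromosome 7 between 18697255 and 18731848, and the 5 BE-only ones were 50 to 192 bp wide and all inside. The region from 18716765 to 18716858 had a fold enrichment of 8.28, 8.56 and 8.38 in BE; the other 4 BE-only regions reached at most 4.37 in any BE list. The last region, from 18731715 to 18731848, was held by all lists and had the gene's highest fold enrichment, 61.9, 86.8 and 86.8 in BE and 135, 94.8 and 82.3 in NC. Input RNA of *Hnrnpm* rose in BE, with 205, 235 and 209 CPM in BE and 141, 143 and 132 CPM in NC (log2 fold change 0.64 ± 0.10 SE, adjusted p = 0.000723).

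*Myo9b*, an unconventional myosin, had a peak in 8, 8 and 9 of its 9 regions in BE and in 3, 4 and 3 in NC. Its 5 BE-only regions (63 to 193 bp) lay between 3 shared ones of 834 to 906 bp on chromosome 16. Input RNA was 130, 131 and 114 CPM in BE and 89.6, 89.8 and 96.9 CPM in NC (log2 fold change 0.44 ± 0.11, adjusted p = 0.00877). So the groups did not overlap in either measure, while the input difference was small.

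Another 4 genes had 4 BE-only regions each. *Cenpe*, the kinetochore motor of dividing cells, had 9 of its 10 regions in each BE list, against 4, 6 and 5 in NC, and its input RNA rose (log2 fold change 1.82 ± 0.18, adjusted p = 3.88e-05). *Mdn1*, an ATPase of ribosome assembly, had all 9 regions in every BE list and 5 in every NC list (log2 fold change 1.20 ± 0.10, adjusted p = 1.20e-05). *Sipa1l2*, a Rap GTPase-activating protein, had 8, 7 and 9 of 9 regions in BE and 2 in each NC list (log2 fold change 0.63 ± 0.13, adjusted p = 0.00355). *Cep250*, which links centrioles, had 7, 8 and 8 of 8 in BE and 3 in each NC list, with an input difference that did not pass (31.5, 24.7 and 21.7 CPM in BE, 20.9, 20.3 and 22.0 CPM in NC, adjusted p = 0.239).

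NC-only regions gathered in few genes. *Col6a5*, a collagen VI chain, had 6 among its 8 regions: it had a peak in 1, 0 and 0 regions in the BE lists and in 7, 8 and 8 in the NC lists. Its regions lay on chromosome 8 from 113904374 to 113989491, and the last 6 were 555 to 678 bp wide with 2114 to 4350 bp between them. The 1 region with a peak in a BE list, from 113974651 to 113975226, had the gene's highest fold enrichment in every NC list (26.3, 16.1 and 24.4) and 5.68 in BE replicate 1. Input RNA of *Col6a5* fell, with 6.59, 1.20 and 5.06 CPM in BE and 69.5, 40.4 and 28.7 CPM in NC (log2 fold change -3.42 ± 0.69, adjusted p = 0.0108).

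*Fhod3*, a formin of striated muscle, had 4 NC-only regions: 3 of 9 regions had a peak in each BE list, the same 3 that were in all lists, against 9, 8 and 8 in NC. *Txlnb* (a muscle taxilin), *Myh14* (a non-muscle myosin), *Mapt* (tau), *Rbm20* (a splicing regulator of titin) and *Myo18b* (a myosin of the sarcomere) had 3 NC-only regions each. The input RNA of all 7 fell in BE, with log2 fold changes from -4.31 in *Txlnb* to -2.58 in *Rbm20*. *Mapt* had 2.48, 4.47 and 3.66 CPM in BE and 54.4, 50.2 and 40.4 CPM in NC. All 12 host genes in which every NC list held more regions were lower in BE input. Of all genes tested 21.8% were lower, and of the tested host genes 33.3%. A peak needs reads, so the 2 measures are not independent. The share over all genes with more regions in every NC list is not given here.

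**Figure D4:**
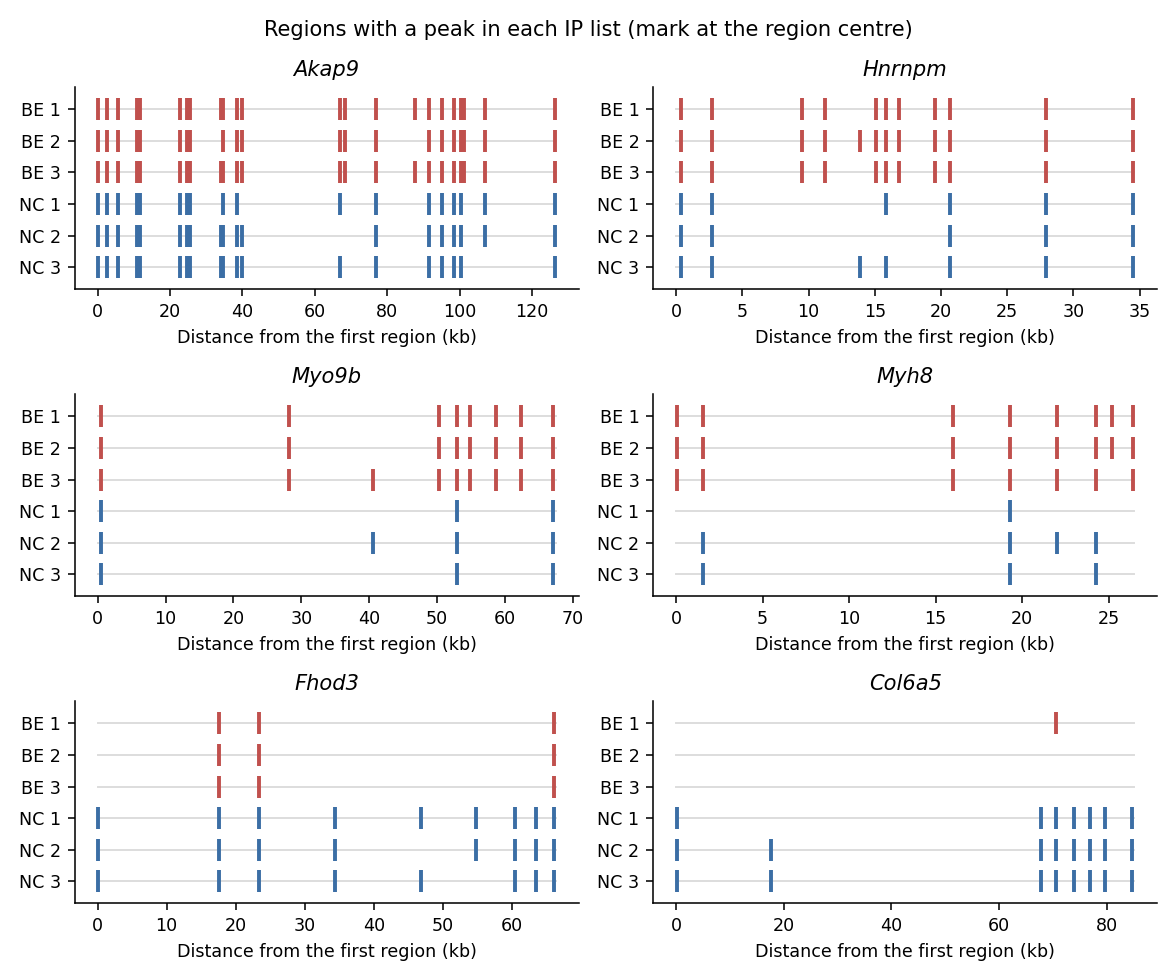
Position of regions with a peak in each IP list along 6 host genes, as distance in kb from the first region; each mark is a region centre, with BE lists in the upper 3 rows and NC lists in the lower 3. In *Hnrnpm* and *Myo9b* the BE-only regions lie between shared ones, and in *Col6a5* the NC lists hold 7, 8 and 8 regions where the BE lists hold 1, 0 and 0.

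Input RNA was measured apart from the peaks, although a peak needs reads. Of the 213 host genes tested, 57 rose in BE (26.8%, background 21.8%) and 71 fell (33.3%, background 21.8%), while 85 did not pass; over all genes 43.6% changed in either direction. Their median log2 fold change was -0.04, against 0.03 over all 13761 genes tested. The remaining 10 host genes were 8 below the filter on low counts and 2 that the count table did not match. Without BE input replicate 1, 60 rose and 71 fell.

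Region presence was then set beside the change in input. In the 57 genes that rose, 68 of 538 regions were BE-only (12.6%) and 11 NC-only (2.04%). In the 71 that fell, 48 of 781 were BE-only (6.15%) and 34 NC-only (4.35%). In the 85 that did not pass, 54 of 815 were BE-only (6.63%) and 0 NC-only. Regions outside host genes had 10.9% BE-only in genes that rose, 2.32% in genes that fell and 4.05% in genes that did not pass, and 1.09%, 9.29% and 1.46% NC-only. Of the 71 host genes that fell, 46 had a higher mean number of regions in BE and 21 in NC. Across the 213 genes, the difference in mean region number and the log2 fold change had a Pearson r of 0.39 and a Spearman rank correlation of 0.23; this is a description across genes that share the same libraries.

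**Figure D5:**
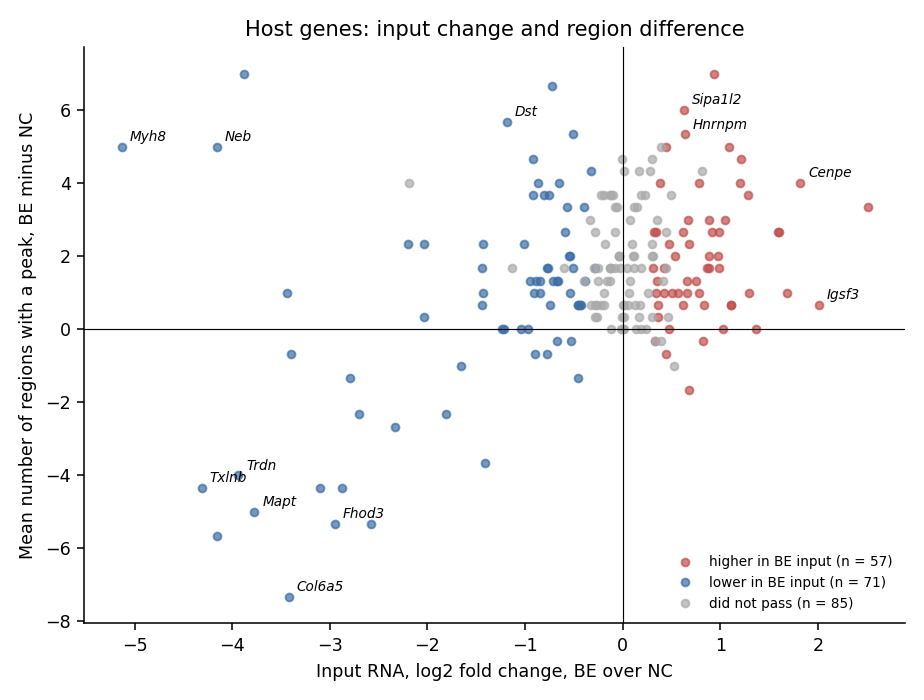
Difference in mean number of regions with a peak (BE minus NC, vertical) against the input log2 fold change (BE over NC, horizontal) for the 213 host genes tested, coloured by whether input passed the test. The lower left holds genes such as *Col6a5* and *Fhod3* with lower input and fewer regions in BE, and the upper left holds *Myh8*, *Neb* and *Dst* with lower input and more regions in BE.

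In 13 host genes, input RNA was at least 2-fold lower in BE while the BE lists held more regions on average. A fall of at least 2-fold passed in 32 host genes. Of all 223 host genes, 178 had more regions on average in BE, whatever their input. *Neb* had 1305, 1346 and 1699 CPM in BE and 30495, 25368 and 21584 CPM in NC (log2 fold change -4.15 ± 0.18, adjusted p = 1.44e-07), yet 19, 12 and 15 of its 20 regions had a peak in BE and 13, 9 and 9 in NC. The lists of the 2 groups overlapped for *Neb*.

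*Myh8*, the perinatal myosin heavy chain, had the largest fall of any host gene (830.4, 580.3 and 1249 CPM in BE, 35485, 31289 and 26466 CPM in NC, log2 fold change -5.13 ± 0.32, adjusted p = 1.25e-05). It had 8, 8 and 7 of 8 regions in BE and 1, 4 and 3 in NC. Myosin heavy chains resemble each other in sequence to differing degrees. Counts and peaks of *Myh8*, *Myh2*, *Myh14*, *Myh11* and *Myh9l1* could therefore be split or shared between genes and are uncertain. *Dst* had 1014, 1098 and 1277 CPM in BE and 2816, 2469.8 and 2407 CPM in NC, with 21, 18 and 20 regions in BE and 14, 15 and 13 in NC, so that the groups were apart in opposite directions.

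*Trdn*, the gene with most regions, went the other way from *Neb*. Its input RNA fell (18.2, 9.98 and 13.7 CPM in BE, 235, 207 and 201 CPM in NC, log2 fold change -3.94 ± 0.22, adjusted p = 1.61e-06), and 23, 20 and 28 of its 29 regions had a peak in BE against 28, 28 and 27 in NC. The groups overlapped, through BE replicate 3, and none of its regions was BE-only or NC-only.

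Among the genes that rose most, *Gspt1* (a translation termination factor) had 15.4, 48.7 and 17.05 CPM in BE and 7.75, 3.22 and 3.45 CPM in NC (log2 fold change 2.51 ± 0.59, adjusted p = 0.0128), with 6, 9 and 7 of 9 regions in BE and 3, 5 and 4 in NC, some of them repeated copies. Its call was lost when either NC input replicate 2 (edgeR adjusted p = 0.0601) or 3 (0.0590) was left out. Whether the repeated copies also affect its input counts was not tested. *Igsf3* rose (log2 fold change 2.01 ± 0.15, adjusted p = 5.11e-06) with almost no difference in regions, 9 in each BE list and 8, 8 and 9 in NC. *Mki67* (1.68 ± 0.14) and *Incenp* (1.60 ± 0.20), both of dividing cells, also rose. *Incenp* had 8, 7 and 7 of 9 regions in BE and 4, 5 and 5 in NC, and *Mki67* 9, 8 and 8 in BE and 8, 6 and 8 in NC.

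Of 7 gene lists, chosen with earlier results of these data known, chromatin and transcription regulators gave most host genes, 12 of 50. It was also the largest list. Over all genes with a region in at least 2 lists, 2.24% were host genes, a share to set beside every list below. The 12 genes had 138 regions, of which 10 were BE-only and 0 NC-only. The BE-only share of 7.25% stood beside the background of 5.48% given above and 7.99% over all host-gene regions. Of the 46 list members tested in input, 5 rose (10.9%) and 14 fell (30.4%), with backgrounds of 21.8% in each direction. The chromatin remodeller *Chd7* had 15, 13 and 14 of 15 regions in BE and 12, 10 and 9 in NC; its input difference did not pass. *Baz2b*, a bromodomain protein, had 11, 12 and 13 of 14 in BE and 9, 10 and 9 in NC, and *Chd6*, whose input fell (-0.66 ± 0.11), had 10, 10 and 11 of 11 in BE and 8, 9 and 10 in NC.

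The list of sarcomere and calcium release genes gave 5 host genes of 27, among them *Neb*, *Myh11*, *Myh2* and *Myh8*. They had 68 regions, 10 BE-only (14.7%) and 0 NC-only. *Myh2* and *Myh8*, whose peaks are uncertain as given above, held 3 of the BE-only regions each. The list does not hold *Trdn*, nor the muscle genes *Myo18b*, *Fhod3*, *Txlnb* and *Rbm20*, which had NC-only regions as given above. In input 22 of its 24 tested members fell (91.7%, background 21.8%) and 0 rose, with a median log2 fold change of -4.05. *Myh11*, the smooth muscle myosin, fell (-3.43 ± 0.20) and had 12, 13 and 14 of 14 regions in BE and 11, 12 and 13 in NC. *Myh2*, a fast-muscle myosin, had all 9 regions in each BE list and 5 in each NC list; its input was 139, 248 and 130.4 CPM in BE and 1582, 474 and 307 CPM in NC (adjusted p = 0.0929).

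Giant cytolinkers and junction proteins gave 3 of 25 genes with 43 regions, 5 of them BE-only (11.6%) and 0 NC-only, and in input 10 of 24 tested members rose (41.7%) and 11 fell (45.8%), both above the background of 21.8%. *Macf1* rose (0.86 ± 0.11) with 11, 9 and 11 of 11 regions in BE and 9, 8 and 9 in NC. *Sptbn1*, a spectrin of the membrane skeleton, fell (-1.01 ± 0.13) with 9, 9 and 8 of 11 in BE and 7, 6 and 6 in NC. The list named for matrix and basement membrane gave 4 of 28 with 45 regions, 3 BE-only (6.67%) and 0 NC-only. In input 10 of its 26 tested members rose (38.5%) and 11 fell (42.3%). Of these 4 host genes, *Fat1* and *Fat2* are protocadherins rather than matrix proteins, and they held 12 and 10 of the 45 regions. *Col6a3*, a collagen VI chain, fell (-0.87 ± 0.12) with 10, 15 and 14 of 15 regions in BE and 6, 10 and 11 in NC. The laminin chain *Lamc1* fell (-0.51 ± 0.12) with 8, 7 and 8 of 8 in BE and 5, 7 and 6 in NC. *Fat2* rose (0.99 ± 0.10) with 9, 9 and 10 of 10 in BE and 7, 8 and 8 in NC, and *Fat1* had 11, 11 and 9 of 12 in BE and 9, 10 and 10 in NC with an input difference that did not pass.

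The m6A machinery was itself among the host genes. Of 26 writers, erasers and readers, *Zc3h13* and *Ythdc1* passed the rule, with 22 regions, 2 BE-only (9.09%) and 0 NC-only. *Zc3h13*, which anchors the writer complex in the nucleus, had 14 of 14 regions in each BE list and 9, 12 and 11 in NC. *Ythdc1*, the nuclear reader, had 7, 8 and 7 of 8 in BE and 8, 8 and 6 in NC. Input did not pass for either, with 99.5, 127 and 129.7 CPM of *Zc3h13* in BE and 108, 113 and 108 CPM in NC. Of the 21 list members tested, 4 rose (19.0%) and 2 fell (9.52%), shares below the background of 21.8%. RNA processing gave 1 of 22 genes, *Tnrc6b* (a partner of Argonaute in microRNA silencing), and 7 of 21 tested members rose (33.3%) and 2 fell (9.52%). That list lacks the splicing regulators *Hnrnpm* and *Rbm20*, host genes described above. *Tnrc6b* fell (-0.46 ± 0.10) with 7, 6 and 8 of 8 regions in BE and 7, 6 and 6 in NC. Ubiquitin ligases gave 1 of 18, and in input 0 of 18 tested members rose and 6 fell (33.3%). With 8 regions in each of the last 2 lists, 1 of them BE-only, their shares carry little weight.

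Among the other genes with most regions, *Akap9* had 23, 21 and 23 of 23 in BE and 18, 19 and 19 in NC, although its input fell (238, 226 and 244 CPM in BE, 488, 462 and 393 CPM in NC, log2 fold change -0.92 ± 0.11, adjusted p = 9.70e-05). *Eif4g3* had the same pattern, with 16, 15 and 17 of 18 regions in BE and 12, 12 and 10 in NC and a log2 fold change of -0.92 ± 0.13. *Tnrc18* had 17, 17 and 18 of 19 in BE and 15, 15 and 16 in NC at near-equal input (105, 109 and 82.8 CPM in BE, 103, 98.9 and 105 CPM in NC). *Myh9l1* had 14, 16 and 14 of 16 in BE and 12, 9 and 10 in NC at input levels under 4 CPM.

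A name can cover more than 1 place. For 13 host gene names the regions lay on 2 chromosomes or over 500 kb apart, 4 of them on 2 chromosomes. *Nol8*, a nucleolar protein, had 9 regions on chromosome 17 between 16618115 and 16641475 and 7 between 17464281 and 17487878. Counted by locus, 12 of the 13 names no longer reached 8 regions, which left 211 genes with 2109 regions, of which 176 were BE-only and 46 NC-only. That split leaves copies that lie closer together. In 10 names at least 3 pairs of regions had equal widths at 1 shared offset of 50 kb or more (within 500 bp), 6 of them at offsets under 500 kb. *Myh9l1* had 7 of its 16 regions repeated at an offset of 249 kb and *Gspt1* 3 of its 9 at 98.3 kb; the others were *Arid4b*, *Dcun1d1*, *Mfn2* and *Vps37c*. Whether these are gene copies or repeated stretches of the assembly was not tested, so their region numbers may count 1 sequence more than once. With the second copy dropped in all 10 names, 216 genes passed the rule with 2146 regions, of which 174 were BE-only and 46 NC-only.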

How the data were processed

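MeRIP-seq and input libraries of rat esophageal tissue were grouped by their labels. The submitters' processing notes name cutadapt 1.9.3 for trimming and HISAT2 2.0.4 for alignment. For build, annotation, counting tool and caller settings: not given in the sources used here. Peaks on chromosome 4 reach 248245435, past the last GRCr8 gene there (184404305), so no GRCr8 coordinate or sequence was used. Peak names carry MACS. Per the file headers, the authors deposited for each peak a score (-10 log10 of p) and a fold enrichment (ratio), used here to describe and filter peaks within a list. Positions are printed counting from 1, assuming lists that count from 0.

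The authors deposited raw counts per gene for the input libraries; another 6 per-sample columns were not used. Counts were fitted with edgeR 4.0.16 (filterByExpr, TMM, robust quasi-likelihood test, Benjamini-Hochberg adjustment over 13761 genes, threshold 0.05), without covariates, and the procedure was tested on simulated data. Of the host genes, 219 were matched by symbol, 2 by Ensembl identifier and 2 not; 8 symbols were shared by several genes, of which the one with the highest count was taken. Same-numbered BE and NC inputs did not deviate together. Tests planned on peak widths are not given, because widths share the coordinates used by the rule.

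The members and gene lists were chosen with earlier results of these data known. Genes named were the 10 with most regions, 6 with most BE-only and 6 with most NC-only regions, 5 with the largest rise and 5 with the largest fall (at least 5 CPM), up to 4 per list and 3 with most regions in all 6 lists; others were named after their values were seen, and some genes that the rule names are not reported here. Alternatives varied the overlap, score, fold enrichment, number of lists and regions, loci, repeated copies, scaling, filter, tool (DESeq2 1.42.0), block and libraries. Motifs and positions in transcripts were not analysed here. Software was Python 3.11.15, pandas 2.3.3 and SciPy 1.17.1.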

Additional observations from a re-analysis of the deposited data

How the results depend on the processing

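The number of host genes and regions is set by the rule. At 6 or more regions per gene there were 582 host genes and 4521 regions, 332 of them BE-only, and 183 genes separated upward and 23 downward (every BE list above, or below, every NC list). At 10 or more there were 87 genes and 1080 regions, with 90 BE-only, 16 NC-only and 46 and 5 separated genes. A score of at least 100 left 116 BE-only and 17 NC-only regions and 59 and 6 separated genes. A fold enrichment of at least 5 left 134 genes and 1295 regions with 61 BE-only regions and 26 and 6 separated genes. Asking for 3 lists left 20 NC-only regions and 57 and 5 separated genes. The numbers of separated genes under these settings, the split by locus and the removal of repeated copies were chosen after seeing the data. BE-only regions outnumbered NC-only ones in each of these settings, for which no background was computed. The causes of the shifts were not tested.

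Leaving out 1 IP list at a time gave 184 to 216 host genes, 1811 to 2147 regions, 192 to 224 BE-only and 37 to 55 NC-only regions, and 76 to 104 and 8 to 13 separated genes. BE-only, NC-only and separated are looser calls there, because they rest on the remaining lists only. With 1 IP list left out, the width difference to other peaks was -154.8 to -134.6 bp. It was -198 bp at a score of at least 100 and -89.1 bp against other peaks in genes with 2 to 7 regions. The BE minus NC width difference was -10.9 to -6.17 bp, -13.3 bp at a score of at least 100 and 0 bp over regions in all 6 lists. Leaving out 1 input gave 45 to 60 host genes that rose and 63 to 71 that fell.

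Replicate numbers did not pair the samples (correlations of deviations -0.041, 0.0065 and -0.073). With a replicate block in the fit, 48 host genes rose and 69 fell, and the BE minus NC width difference was -9.83 bp. Of the 43 named genes, 36 kept their call and direction in all 10 alternatives. In 3 genes that passed in no alternative the direction turned: *Tnrc18* (log2 fold change -0.13 to 0.061 when 1 input was left out, positive without BE replicate 3), *Baz2b* (-0.23 to 0.0030, positive without BE replicate 1) and *Nol8* (-0.80 to 0.86, negative without BE replicate 1, and -0.17 with the block). *Myh2* passed with DESeq2 (adjusted p = 0.0148), and *Chd7* passed without NC input replicate 2 (edgeR adjusted p = 0.0382). IP library depth was not analysed here, so what it limits in the peak lists is unknown.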

Other observations

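By the cellular component terms that the authors deposited with the peaks, 210 host genes carried a term. The nucleolus was named for 30 of them (14.3%, against 6.04% of 8283 other genes with a region), among them *Mdn1*, *Nat10*, *Pdcd11*, *Tcof1* and *Mki67*. The centrosome was named for 15 (7.14% against 2.96%), among them *Akap9*, *Cep250*, *Cep350*, *Pcnt* and *Cenpf*. The nuclear speck was named for 9 (4.29% against 1.04%), including the m6A factors *Zc3h13* and *Ythdc1*, and the myosin complex for 9 (4.29% against 0.266%), 5 of them myosin heavy chains. Integral membrane components made up 10.5% of host genes and 21.6% of the others, and mitochondrial ones 4.76% and 10.9%. These shares are descriptions without a test, and the terms were chosen after their values were seen. Gene length was not analysed here.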
